A study of Mus musculus with 24 samples.

Results

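The cytosolic ribosomal protein genes of the mouse were followed in total RNA from C127l cells, a mouse mammary adenocarcinoma line. Members were the genes whose symbol is Rpl or Rps with a number and at most one of the letters a, l, x and y after it, together with Rpsa, Rplp0, Rplp1 and Rplp2, if their mean normalised read count was at least 10 in each of the 6 deposited tables. Of 82 matching symbols 78 were members, 31 of the small and 47 of the large subunit, among 25124 genes listed in 5 tables and 26188 in the table of TCA in tetra cells. The other 4 symbols (Rpl10l, Rpl39l, Rpl3l and Rps4l) did not reach the count. All 78 members passed the filter on low values in the comparisons within a table, and 76 entered the comparisons that join tables, because the RefSeq entry listed for Rps24 and for Rpl30 differed among the 5 tables that were joined.

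All 24 libraries came from cells labelled GRKO that carried either GFP-mGRwt (wt below) or GFP-mGRtetra (tetra), a form that the labels do not describe. Cells of each line received vehicle, for which no time is labelled, or 2 h of 100 nM corticosterone (Cort), of 100 µM TCA or of both, after 24 h in charcoal-stripped serum, with 3 libraries in each of the 8 groups. The labels do not expand TCA, which usually stands for taurocholic acid, a bile acid, and the title of the series is about bile acids and the glucocorticoid receptor. The labels do not say whether a line is a single clone, what drives the transgene, or whether the 3 replicates were separate cultures, so p-values measure only the spread between these libraries, which may be technical.

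Each library held 22.0 to 30.6 M exon reads, and the members took 2.57% to 3.74% of them. The ribosomal precursor Rn45s took 18.2% to 28.6%, although ribosomal RNA had been depleted. The receptor gene Nr3c1 was counted at 4176 to 6138 normalised reads in wt and 4877 to 6481 in tetra libraries. Of 10 epithelial markers only Krt14 reached a mean of 10 normalised reads in both vehicle groups (1021 in wt, 600.3 in tetra), and Epcam, Krt5 and Cldn4 were at 0. All 10 mesenchymal markers reached it, with Acta2 lowest at 10.4 in wt and 14.5 in tetra. These values do not settle whether the cells are epithelial. Of 6 immune markers only Lyz2 reached a mean of 10 in both (32.5 in wt, 31.0 in tetra), and Cd3e and Adgre1 were at 0 in both groups. Of 4 endothelial markers only Cdh5 did (257 in wt, 209 in tetra), and Kdr was at 0 in both.

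The cytosolic ribosome has a small subunit, which decodes the mRNA, and a large subunit, which forms the peptide bond and holds the exit tunnel. Its proteins are needed in matched amounts, and surplus ones are degraded. Many of their mRNAs begin with a run of pyrimidines, the terminal oligopyrimidine (TOP) tract, through which mTOR and LARP1 set their translation. Some proteins also act away from the ribosome: Rpl5 and Rpl11 bind Mdm2 and so stabilise p53. The mouse genome holds many near-identical processed copies of these genes to which reads can be assigned, so every count below is uncertain to that extent.

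To show what members that moved look like at their start, 80 bases around the RefSeq start (60 before it and 20 from it on, GRCm38.p6) are given for 3 members that were lower with Cort and 3 that were higher with TCA in wt cells. Capitals mark the unbroken run of C and T that covers the start base, and the letters CCGGAAG, which ETS factors are known to bind. The windows are examples and do not stand for their sets, which were mixed. Among members lower with Cort the run was also 20 bases in Rpl27a and Rpl34. Among those higher with TCA it was also 21 in Rpl7a and 0 in Rpl12 and Rpl6. CCGGAAG was mixed too among members higher with TCA. In the longer windows counted below it was found for Rps2, Rpl6 and Rps6 and not for Rpl27, Rpl14 and Rpl12. The windows are chr10:128549149-128549228 on the minus strand for Rpl41, chr7:45128726-45128805 on the minus strand for Rpl13a, chr9:66946026-66946105 on the plus strand for Rps27l, chr17:24720003-24720082 on the plus strand for Rps2, chr11:101442185-101442264 on the plus strand for Rpl27 and chr9:120571457-120571536 on the plus strand for Rpl14.
Rpl41: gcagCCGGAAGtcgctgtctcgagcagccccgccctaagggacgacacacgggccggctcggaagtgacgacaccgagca
Rpl13a: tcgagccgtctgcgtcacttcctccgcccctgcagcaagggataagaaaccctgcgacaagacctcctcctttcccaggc
Rps27l: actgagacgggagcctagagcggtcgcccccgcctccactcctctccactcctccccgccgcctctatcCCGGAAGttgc
Rps2: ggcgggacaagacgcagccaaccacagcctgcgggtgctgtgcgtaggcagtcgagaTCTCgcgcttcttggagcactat
Rpl27: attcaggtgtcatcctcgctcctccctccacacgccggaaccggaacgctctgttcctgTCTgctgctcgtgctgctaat
Rpl14: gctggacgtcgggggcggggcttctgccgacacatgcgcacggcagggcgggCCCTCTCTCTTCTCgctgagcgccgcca
Of the 78 members, 58 were matched to a RefSeq promoter window of 250 bases before to 50 after the start. A run of at least 5 C or T over the annotated start base was found in 19 (32.8%), against 9.95% of all 27025 promoters. CCGGAAG was found on either strand in 24 (41.4%), against 9.12% of all. AAGATGG, known for YY1, was found in 8 (13.8%) against 6.48%, and TATAAA in 6 (10.3%) against 14.2%. ACANNNTGT, the core of the glucocorticoid response element, was found in 1 (1.72%) against 6.90%. The letter motifs were searched on both strands, and matches of different motifs may overlap. A match says only that the letters are there, and the run depends on the exact base that RefSeq annotates as the start.

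Per length, the members spanned a wide range of levels. The mean over the 8 groups ran from 128 normalised reads per kb for Rpl32l to 39492 for Rplp1, with a median of 12123. After Rplp1, an acidic protein of the stalk that binds elongation factors, came Rpl28, Rps15, the other acidic stalk protein Rplp2 at 33001, and Rpl41 at 31488. In wt vehicle, levels per kb were 43152 ± 6112 (SD, n = 3) for Rplp1, 31324 ± 1244 for Rplp2 and 21156 ± 933 for Rplp0, the protein that anchors both to the ribosome. Rplp1 and Rplp2 were thus apart by more than the SD of either, and Rplp0 lay below both. The paralogs Rps27 and Rps27l, the latter a p53 target in human cells, stood at 8153 ± 610.1 and 2704 ± 178 normalised reads per kb. The lowest means were those of Rpl22 (1084), Rpl29 (769) and Rpl32l. Levels per kb depend on the Length of the RefSeq entry listed, and the longest entries were those of Rps15a (5127 nt) and Rps20 (3440 nt).

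Across the 8 groups the members varied little and largely together. The highest group mean exceeded the lowest by 1.19-fold to 1.64-fold, with a median of 1.34-fold over 76 members. The upper end was that of Rpl32l, the member with the lowest count. It was at 92.5 ± 21.8 normalised reads in wt vehicle and 56.4 ± 19.7 in tetra with Cort. Wt cells with Cort were the lowest group for 64 of the 76. The highest group was tetra with TCA plus Cort for 33 and tetra vehicle for 32. The Pearson correlation of a member's mean log2 count with the mean of all members, over the 8 groups, ran from 0.28 for Rpl32l to 0.99 for Rps25, with Rpl19 (0.35), Rps28 (0.48) and Rplp1 (0.49) next lowest. The 5 genes outside the rule closest to the members' mean by the same measure, among 12077, were Vps26b (0.99), Tiprl (0.98), Tmem258 (0.98), Commd1 (0.98) and Rack1 (0.97). These points share libraries and depth. Rack1 is itself a protein of the small subunit that the symbol rule does not catch.

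**Figure D1:**
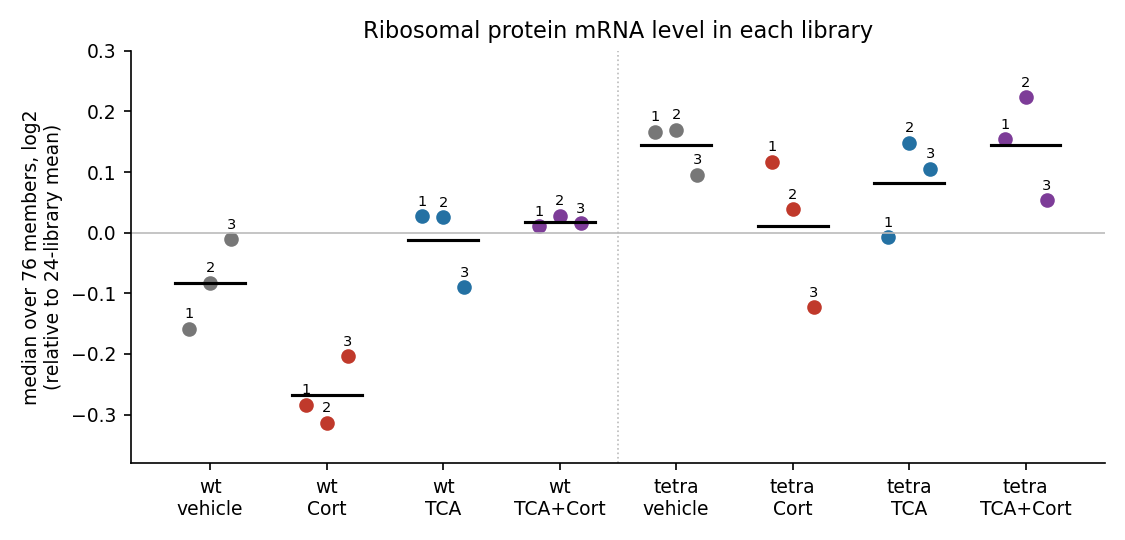
Median over 76 ribosomal protein genes of the log2 normalised read count relative to each gene's mean over 24 libraries, 1 point per library with its replicate number and a bar at the group mean. The wt libraries with Cort lie lowest, between -0.31 and -0.20, and the tetra vehicle libraries lie between 0.10 and 0.17.

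By library, the members' median relative to the mean of all libraries was -0.16, -0.08 and -0.01 on the log2 scale in wt vehicle. In wt with Cort it was -0.28, -0.31 and -0.20, below every other library. Within several groups 1 library lay away from the others. Examples were tetra Cort replicate 3 (-0.12, others 0.12 and 0.04), tetra TCA replicate 1 (-0.01, others 0.15 and 0.11) and wt TCA replicate 3 (-0.09, others both 0.03). By smaller gaps, so did tetra vehicle replicate 3 (0.10, others both 0.17) and wt Cort replicate 3, the highest of its group. Replicate 3 was also the lowest in tetra with TCA plus Cort (0.05, others 0.15 and 0.22).

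**Figure D2:**
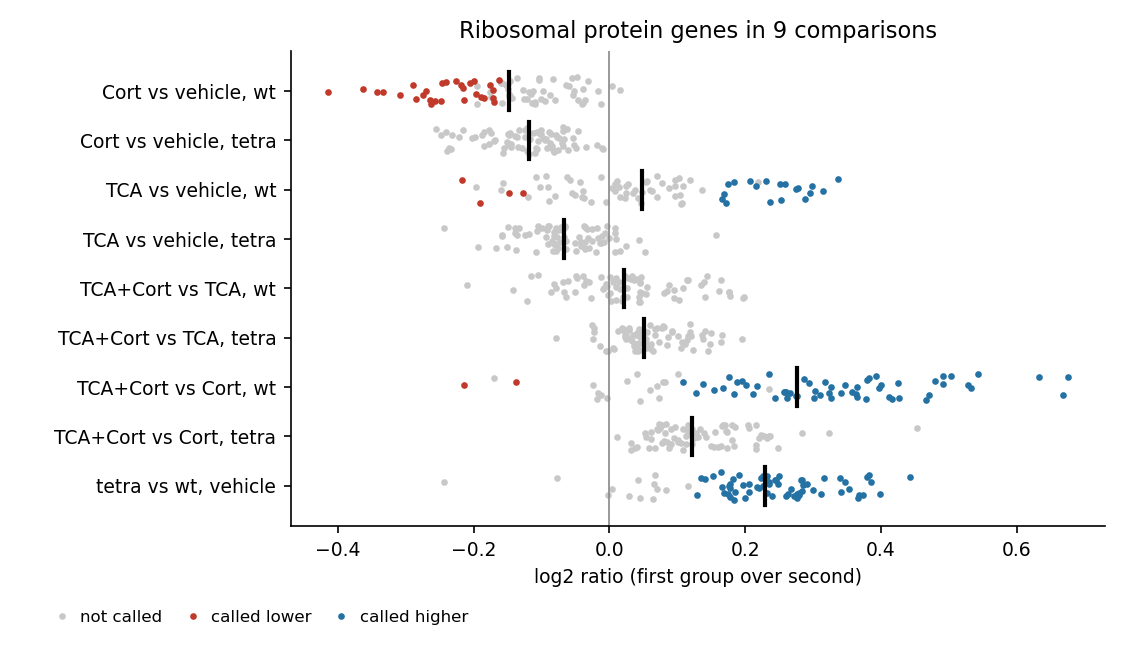
Log2 ratio of every ribosomal protein gene in 9 comparisons (78 genes where the groups share a table, 76 where tables were joined), with a bar at the median. Genes in red were called lower and genes in blue higher at an adjusted p below 0.05; for Cort against vehicle in wt 29 genes are red, and no gene is coloured in the tetra treatments.

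In wt cells 2 h of Cort lowered a set of ribosomal protein mRNAs. Of 78 members 29 were called lower, against 1.47% of all 12749 genes tested, by limma (intensity trend, deposited values) and a Benjamini-Hochberg adjusted p below 0.05 over all genes. No member was called higher, against 0.918% of all genes. None had an unadjusted p below 0.05 in that direction, and limma voom on recovered counts gave 30 lower and 0 higher. The members' median log2 ratio was -0.15, that of all genes was 0.00, and 76 of 78 members were below 0. Both subunits took part, with 14 of 31 small and 15 of 47 large subunit members called. In bulk RNA, fewer cells of a type and less RNA per cell cannot be told apart.

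On the deposited log2 scale the largest fall was in Rpl41 (chr10:128548110-128549168, mm10), a very short basic peptide of the large subunit. It gave 10372, 10419 and 10070 normalised reads with Cort against 12622, 14353 and 15031 with vehicle. Every Cort library lay below every vehicle library, and the means differed by 1.36-fold (log2 ratio -0.41 ± 0.05 SE, limma adjusted p = 3.27e-05). Log2 ratios here are on the deposited scale, which understates the ratio of the counts. Rpl13a (chr7:45125563-45128745), which in human cells also silences inflammatory mRNAs in the GAIT complex, gave 8071, 7840.2 and 8035 against 9899.9, 10765 and 10800. Its groups did not overlap and differed by 1.31-fold (log2 ratio -0.36 ± 0.04, limma adjusted p = 1.88e-05). Rpl36 (chr17:56613395-56614246) gave 4196, 4108 and 4556 against 5044, 5414 and 6500.2, 1.32-fold lower and again with no overlap. Rpl17, which lines the exit tunnel, was 1.29-fold lower, at 6644 ± 143 against 8586 ± 763 normalised reads.

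In the small subunit the largest fall was in Rps27l (chr9:66946086-66949522), with 1060.2, 916 and 1130.4 normalised reads against 1326, 1447 and 1514. The groups did not overlap and their means differed by 1.38-fold (log2 ratio -0.31 ± 0.05, limma adjusted p = 2.85e-04). Its paralog Rps27 was at 3735 ± 219.7 against 4234 ± 319 and was not called (log2 ratio -0.15 ± 0.05, limma adjusted p = 0.113). Rps21 was 1.26-fold lower, at 3787 ± 411 against 4788 ± 505. Rps3, at the site where mRNA enters, was 1.19-fold lower, at 8117 ± 507 against 9619 ± 421.

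The calls split the stalk, but differences among its genes were not tested. Rplp0 was lower, with 21983, 22293 and 22594 normalised reads against 24735, 26213 and 27041 (log2 ratio -0.21 ± 0.05). Rplp1 was lower too, with 15031, 15616 and 13906 against 16260, 17158 and 21095 (-0.27 ± 0.07), its vehicle replicate 3 standing above the other vehicle libraries. Rplp2 was not called, at 11792 ± 327 against 12820 ± 502 (-0.11 ± 0.04). Of the pair that binds Mdm2, Rpl5 was lower by 1.14-fold and Rpl11 by 1.17-fold, with limma adjusted p of 0.0364 and 0.0451. Of 14 alternative settings, Rpl5 lost its call in 9, Rpl11 in 7 and both Rplp0 and Rplp1 in 5. Rps3 lost its call in 4 and Rps21 in 3.

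Others called lower included Rps14, Rps24, Rps12, Rpl10a, Rps19, Rps18, Rps15, Rpl35, Rpl27a, Rpl26, Rps16, Rps7, Rps25, Rps10, Rpl34 and Rpl36a (16 genes; log2 ratios -0.28 to -0.16). Several well-known members were not called. Rps6, the substrate of the S6 kinases, was at 6944 ± 527 normalised reads with Cort against 7154 ± 494 with vehicle. The X-linked Rps4x was at 11248 ± 895 against 11676 ± 306, and Rpsa, the laminin receptor precursor, at 18422 ± 727 against 20003 ± 1012. Rpl3, near the peptidyl transferase centre, was at 9406 ± 611 against 10118 ± 623, and Rps27a, made as a fusion with ubiquitin, at 4456 ± 295 against 5061 ± 314. Rpl10, which joins the large subunit late, was at 11817 ± 1300.5 against 11919 ± 303, and Rpl39, in the exit tunnel, at 3792 ± 880.1 against 3868 ± 316. For both of the last named the groups overlapped.

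The count of 29 depended on single libraries. It was 8 without wt vehicle replicate 3, the vehicle library with the highest members' median, and 52 without wt Cort replicate 3. It was 19 without wt vehicle replicate 2, 15 without wt Cort replicate 1 and 16 without wt Cort replicate 2. Shares of all genes called with a library left out are not given here. With libraries scaled to total exon reads the count was 10, beside 0.643% of all genes lower. It was 18 when Rn45s was left out of the total, beside 1.05%. Rpl41, Rpl13a, Rpl36, Rpl17 and Rps27l were called in all 14 alternatives.

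Some other transcripts were also lower with Cort than with vehicle in wt. Rpph1, the RNA of RNase P, was at 7545, 7159 and 8246 CPM of exon reads in wt vehicle and at 2906, 2198 and 2810 CPM in wt with Cort. Rmrp, the RNA of RNase MRP, was at 4543 to 6323 CPM in vehicle and 1459 to 2299 CPM with Cort. Of 66 replication histone genes, whose short mRNAs lack a poly(A) tail, 35 were lower and none higher by limma and limma voom, with none higher at an unadjusted p below 0.05. Of 85 respiratory chain subunit genes 13 were lower and none higher, such as Atp5e, a small subunit of ATP synthase, at 1129.9 ± 32.3 against 1659 ± 101 normalised reads. Their part in the members' result was not tested.

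**Figure D3:**
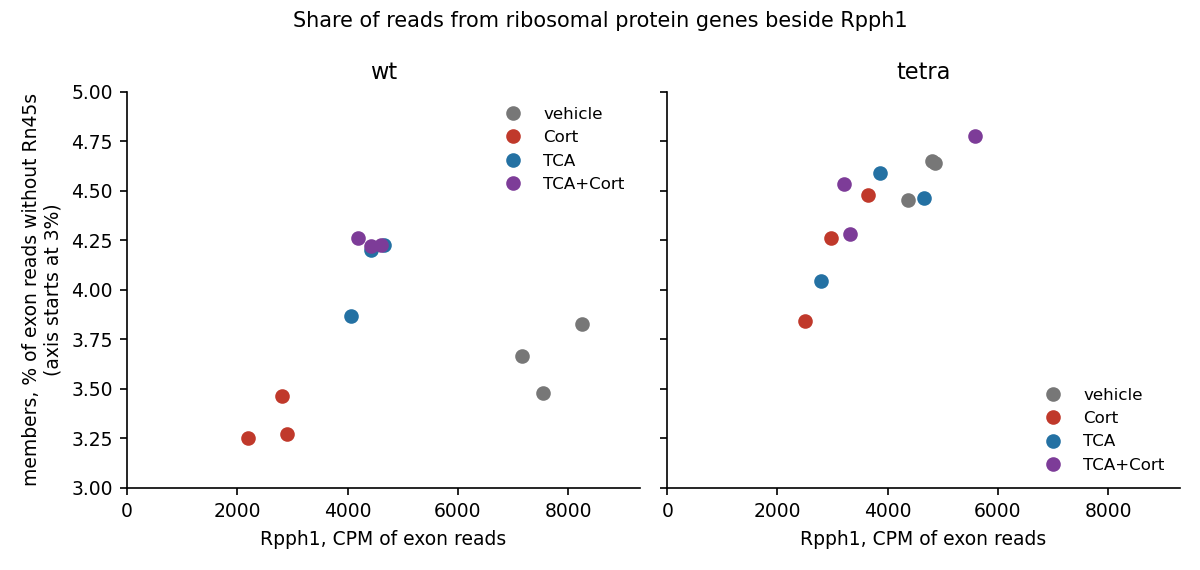
Share of exon reads from the ribosomal protein genes after leaving out Rn45s (vertical axis, from 3%) against Rpph1 in CPM of exon reads (horizontal axis), 1 point per library, wt on the left and tetra on the right. In wt the Cort libraries lie at 2198 to 2906 CPM and 3.25% to 3.46%, and the vehicle libraries at 7159 to 8246 CPM and 3.48% to 3.83%. The wt TCA libraries lie at 4055 to 4654 CPM and 3.87% to 4.23%. Those with TCA plus Cort lie at 4183 to 4608 CPM and 4.22% to 4.26%, so both have less Rpph1 than vehicle and a higher share.

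Genes with related duties were mostly not called with Cort in wt. Of 17 translation factors and other TOP mRNAs none was called by limma (median log2 ratio -0.02), the nearest being Eef1b2 at -0.17 ± 0.05 with an adjusted p of 0.0587. None of 25 ribosome biogenesis genes, 10 snoRNA host genes and 78 mitochondrial ribosomal protein genes was called, with medians of 0.04, 0.02 and -0.03. At an unadjusted p below 0.05, 1 of the TOP list was higher and 2 lower, 4 and 1 of the biogenesis genes, 1 and 1 of the snoRNA hosts, and 0 and 14 of the mitochondrial list, and limma voom called 0 in each. Of 7 ribosomal protein genes outside the rule, Fau, made as a ubiquitin-like fusion, and Rack1 were lower, with log2 ratios of -0.34 ± 0.06 and -0.22 ± 0.05. Rpl22l1, Rpl36al, Rps3a1 and Rpl7l1 were not called.

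In tetra cells all 78 members were below 0 with Cort, with a median log2 ratio of -0.12 beside 0.00 for all genes. None was called lower by limma, against 0.871% of all genes, or higher, against 2.47%. At an unadjusted p below 0.05, 41 were lower and 0 higher, and limma voom called 0 either way. The smallest adjusted p was 0.0566, for Rps14, with 10958, 9386 and 8545 normalised reads against 11376, 11833 and 10955. Rpl41 gave 15269, 12976 and 11263 against 15572, 16292 and 14132, so its groups overlapped (log2 ratio -0.22 ± 0.08). In both genes Cort replicate 3 was the lowest library. The count was 18 without tetra Cort replicate 1, 4 without tetra vehicle replicate 3, 1 without tetra Cort replicate 2 and 0 without tetra Cort replicate 3. A replicate block also raised the count, as given below where the dependence on processing is described. No share of all genes is given for these settings. Rpph1 lay at 3647, 2980 and 2503 CPM in the 3 Cort libraries and at 4363 to 4852 CPM in tetra vehicle, and its part in the result was not tested.

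The Cort effect was not shown to differ between the lines. Over 12 libraries limma called none of 76 members higher, against 0.164% of all genes, or lower, against 1.07%, for the difference wt minus tetra. At an unadjusted p below 0.05, 2 members were lower and 0 higher, and limma voom called 0. The median difference was -0.05 and turned to 0.02 when libraries were scaled to total exon reads. Those 2 members were Rps27l (-0.29 ± 0.13) and Rpl36 (-0.27 ± 0.12), with limma adjusted p of 0.565 and 0.563.

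**Figure D4:**
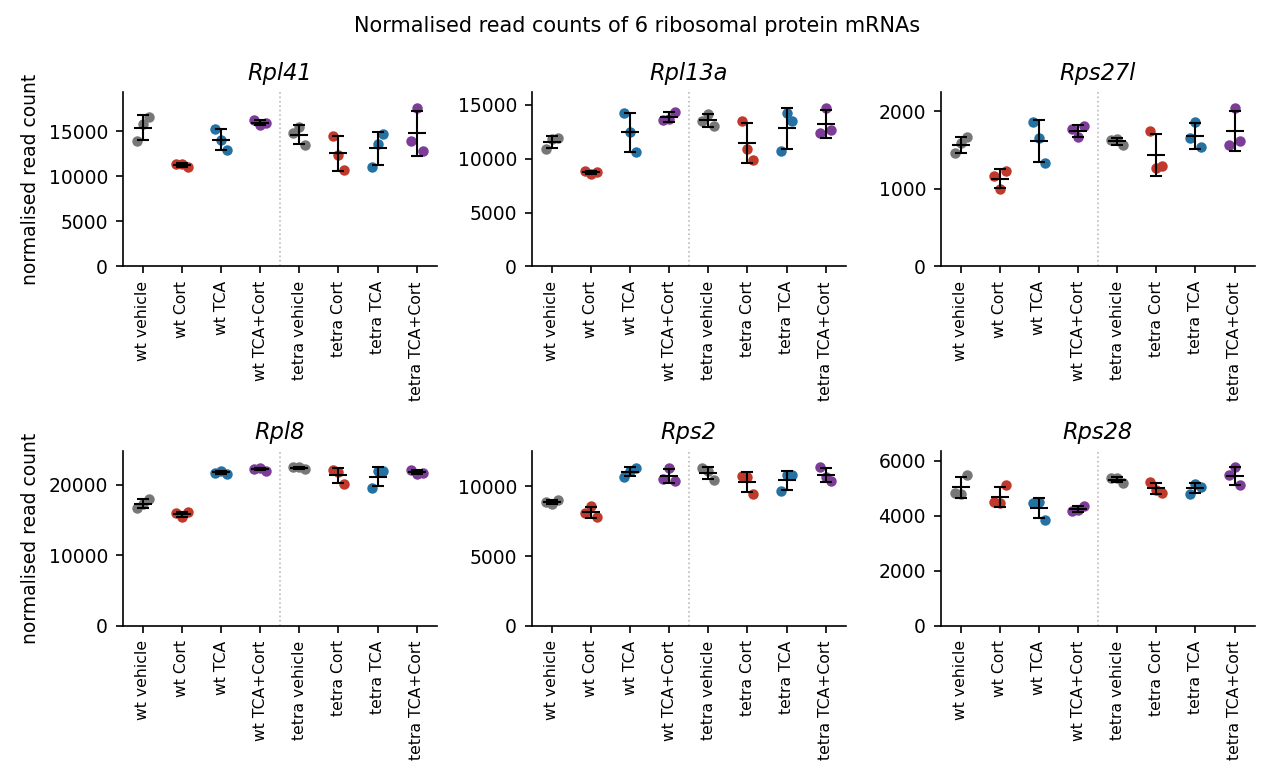
Normalised read counts of 6 ribosomal protein mRNAs over the 8 groups, 1 point per library, with mean and SD (n = 3). Rpl41, Rpl13a and Rps27l have their lowest group mean in wt with Cort (11237, 8719 and 1131 normalised reads), and Rpl8 and Rps2 lie lowest in wt with Cort and wt vehicle.

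With TCA alone in wt cells, some members rose and few fell. Over all genes in this comparison limma called 28.8% higher and 28.6% lower of 12725. Of 78 members 19 (24.4%) were higher and 4 (5.13%) lower, so the share of members called higher was near that of all genes. Their median log2 ratio was 0.05 beside 0.00 for all genes. With libraries scaled to total exon reads without Rn45s, 37 members were higher and 0 lower, beside 37.4% and 22.2% of all genes. No label gives a batch, so a batch that coincided with TCA in wt cannot be told apart from it.

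Rpl8 (chr15:76904071-76906318, mm10), a protein of the peptidyl transferase region, rose most. It gave 20411, 20665 and 20249 normalised reads with TCA against 15518, 16151 and 16821 with vehicle, 1.26-fold higher with no overlap (log2 ratio 0.34 ± 0.05, limma adjusted p = 3.82e-05). Rps2 (chr17:24720063-24721927), near the mRNA entry site, gave 10040, 10417 and 10656 against 8298, 8152 and 8460.4. This was 1.25-fold, again with no overlap (log2 ratio 0.32 ± 0.04, limma adjusted p = 3.18e-05). Rpl27 followed with 5625, 5801 and 5110.4 against 4136, 4534 and 4684, and Rpl14 with 9328, 9379 and 7425 against 6824, 7152 and 7103. In both, TCA replicate 3 was the lowest of its group and still above every vehicle library.

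Rpl12, at the base of the stalk, and Rpl6 rose by 1.23-fold and 1.22-fold. Rpsa rose from 20522 ± 1053 to 24199 ± 1030.4 normalised reads and Rps6 from 7339 ± 506 to 8489.6 ± 357. Rpl3 rose from 10380 ± 631 to 11695 ± 77.7 and Rps3 from 9869 ± 441 to 11156 ± 543. Others called higher included Rpl7a, Rpl35a, Rpl18, Rps23, Rpl4, Rpl9, Rpl24 and Rpl37 (8 genes; log2 ratios 0.17 to 0.27). Rpl8, Rps2, Rpl27, Rpl14, Rpl12, Rpl6, Rps6 and Rpsa were called in all 14 alternatives.

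The 4 members that fell with TCA in wt were Rps28, Rpl22, Rpl37a and Rps20. Rps28 (chr17:33823036-33824562) gave 4196, 4221 and 3616 normalised reads against 4492, 4452 and 5109.6, 1.17-fold lower with no overlap (log2 ratio -0.22 ± 0.06, limma adjusted p = 0.0107). Rpl22, whose paralog Rpl22l1 can take its place in the mouse, gave 2212, 2173 and 1835 against 2328, 2301 and 2517 (-0.19 ± 0.06). Rpl22l1 itself had a log2 ratio of 0.04 ± 0.07 and was not called. Rpl37a was at 8321 ± 220.0 against 9233 ± 185, and Rps20 at 8596 ± 421 against 9399 ± 419. The count lower was 0 after both scalings to total reads, beside 23.9% of all genes, or 22.2% without Rn45s. It was 1 without wt vehicle replicate 3 and 8 without wt vehicle replicate 1. The count higher was 30 without wt TCA replicate 3, the library of its group with the lowest members' median. Shares of all genes with a library left out are not given here.

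The stalk proteins were not called with TCA in wt, with log2 ratios of 0.01 ± 0.05 for Rplp0, -0.20 ± 0.09 for Rplp1 and 0.04 ± 0.05 for Rplp2. Rpl41 (-0.12 ± 0.07) and Rpl13a (0.11 ± 0.08) were not called either. All 25 ribosome biogenesis genes were higher, with a median log2 ratio of 0.42, such as the RNA polymerase I subunit Polr1a at 2710.1 ± 75.4 against 1695 ± 38.1 normalised reads. Of 17 translation factors and other TOP mRNAs 9 were higher, such as the nucleolar chaperone Npm1 (0.87 ± 0.08), and 6 lower, such as Eif4b (-0.35 ± 0.05) and Eif3f (-0.30 ± 0.04). Of 78 mitochondrial ribosomal protein genes 36 were higher and 4 lower, and of 86 respiratory chain subunits 8 were higher and 49 lower. Among snoRNA host genes 5 of 10 were higher and 2 lower, and among replication histones 63 of 66 were higher and 1 lower. Rpph1 was at 4055 to 4654 CPM of exon reads with TCA and 7159 to 8246 CPM with vehicle. Of the 7 ribosomal protein genes outside the rule, Rpl7l1 (0.43 ± 0.05) and Rpl36al (0.31 ± 0.06) were higher, and 1 was lower. Markers of cell types moved too: of 9 mesenchymal markers tested 2 were higher and 6 lower, and the 1 epithelial, 1 immune and 1 endothelial marker tested were lower. Their part in the members' result was not tested.

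In tetra cells no member was called with TCA by limma, against 0.0153% of all 13075 genes called higher and 0% lower, and limma voom called 0. The members' median log2 ratio was -0.07, and 69 of 78 were below 0. At an unadjusted p below 0.05, 4 were lower and 0 higher. Rpl8 gave 19590, 22082 and 21866 normalised reads with TCA against 22407, 22587 and 22286 with vehicle, replicate 1 with TCA being the lowest. Rplp1 had the lowest ratio (-0.24 ± 0.11), with 14003, 16499 and 20103 against 20693, 21172 and 17787, and the groups overlapped. Rpl39 had the highest ratio (0.16 ± 0.10).

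The TCA effect differed between the lines for 16 of 76 members, all with the larger value in wt (limma over 12 libraries), against 19.9% of all genes in that direction. As a share, 16 of 76 (21.1%) is near that of all genes. None differed the other way by limma or limma voom, with 1 at an unadjusted p below 0.05, against 21.6% of all genes. The largest differences on the log2 scale were in Rpl8 (0.41 ± 0.08), Rpl7a (0.41 ± 0.09), Rpl27 (0.40 ± 0.08) and Rps2 (0.38 ± 0.08). For Rpl8 the log2 ratio for TCA was 0.34 in wt and -0.08 in tetra. Others called included Rpl6, Rpl14, Rpl18, Rpl12, Rpsa, Rps26, Rpl15, Rps3, Rps6, Rpl4 and Rpl3 (11 genes; log2 ratios 0.20 to 0.34). The count was 28 with scaling to total exon reads without Rn45s, beside 28.6% of all genes. It was 10 without wt vehicle replicate 1, 10 without wt TCA replicate 1, 9 without wt TCA replicate 2 and 10 without tetra vehicle replicate 2. The share of all genes in these settings is not given here, so the counts cannot be set against it.

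With TCA present, no member was called by limma when Cort was added, in either line. In wt the median log2 ratio of TCA plus Cort against TCA was 0.02, turning to -0.01 with scaling to total exon reads. None was called higher, against 0.274% of all genes, or lower, against 0.141%, while 13 were higher and 3 lower at an unadjusted p below 0.05. Limma voom called 0. The smallest adjusted p was 0.0598, for Rpl34, with 1209, 1209 and 1218 normalised reads against 1025, 1043 and 927. Rpl41 gave 16453, 15872 and 16130 against 15520, 14198 and 13020, with no overlap (log2 ratio 0.18 ± 0.05, limma adjusted p = 0.140). Without wt TCA replicate 3, 12 members were called higher and 18 lower, among them Rpl5 at -0.12 in place of 0.01. The share of all genes called without that library is not given here, so these counts cannot be set against it.

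In tetra cells the median of TCA plus Cort against TCA was 0.05. None was called higher, against 1.42% of all genes, or lower, against 0.288%, by limma or limma voom. At an unadjusted p below 0.05, 1 member, Rpl34, was higher and 0 were lower. Rpl34 gave 1278, 1368 and 1145 against 1005, 1132 and 1185 normalised reads.

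The Cort effect on the members in wt differed with and without TCA. The difference, with minus without, was called for 25 of 76 members, all above 0 (limma over 12 libraries), against 2.18% of all genes in that direction. It shares its wt vehicle and wt Cort libraries with Cort against vehicle, so their values are not independent. Of the 25 members, 22 were called lower in that comparison. The median difference was 0.19 over members and 0.01 over all genes. None was called below 0 by limma or limma voom or had an unadjusted p below 0.05 in that direction, against 1.58% of all genes. Rpl41 had the largest value, 0.63 ± 0.08 (limma adjusted p = 5.83e-04), its log2 ratio for Cort being -0.41 without TCA and 0.18 with it. Rps27l (0.60 ± 0.13), Rpl34 (0.58 ± 0.10) and Rpl36 (0.58 ± 0.10) followed. Of the stalk, Rplp1 (0.47 ± 0.11) and Rplp0 (0.32 ± 0.06) were called and Rplp2 (0.15 ± 0.07) was not. Others called included Rpl13a, Rps14, Rpl17, Rps19, Rpl10a, Rps18, Rps21, Rps7, Rps15, Rpl35, Rps13, Rpl27a, Rpl15, Rps3, Rpl13, Rpl26 and Rps16 (17 genes; log2 ratios 0.27 to 0.57).

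The count of 25 was 3 without the intensity trend, where the share of all genes is not given. It was 6 with libraries scaled to total exon reads, beside 0.616% of all genes. It was 13 without wt vehicle replicate 3, 14 without wt TCA plus Cort replicate 1 and 15 without its replicate 2. For these left-out libraries too, no share of all genes is given. Rpph1 in wt was at 4055 to 4654 CPM with TCA and at 4183 to 4608 CPM with TCA plus Cort, ranges that overlap, and its part in the difference was not tested. Of 65 replication histones 26 were called above 0 in the same difference, and of 85 respiratory chain subunits 14. In tetra cells the members' median difference was 0.20 beside 0.00 for all genes, with 75 of 76 above 0. None was called by limma or limma voom, against 0% of all genes, and at an unadjusted p below 0.05, 19 were above 0 and none below. The smallest adjusted p was 0.925.

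Set against Cort alone, TCA plus Cort was higher for most members in wt. Of 76 members 58 (76.3%) were called higher and 2 (2.63%) lower by limma on joint log2 counts, against 29.4% and 29.6% of all 12199 genes. The median log2 ratio was 0.28 beside 0.00 for all genes. Rpl36 gave 7506, 7936 and 7001 normalised reads with TCA plus Cort against 4593, 4484 and 4970.5 with Cort, 1.60-fold higher with no overlap (log2 ratio 0.68 ± 0.05, limma adjusted p = 9.76e-10). These counts were scaled jointly over 24 libraries, so they differ from those within a table. Rpl13a gave 13609, 13632 and 14354 against 8835, 8558 and 8765, 1.59-fold higher, and Rps27l gave 1777, 1664 and 1807 against 1160.5, 999.7 and 1233, 1.55-fold higher. In neither did the groups overlap.

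Rpl27 (1.45-fold), Rps19 (1.45-fold), which is mutated in Diamond-Blackfan anaemia in humans, and Rps14 (1.44-fold) came next. Rplp0 gave 30510, 30852 and 29660 normalised reads against 24063, 24333 and 24648, with no overlap. The 2 lower members were Rpl22, at 1994 ± 124 against 2320.4 ± 266 (log2 ratio -0.21 ± 0.07, limma adjusted p = 0.00952), and Rps28, at 4241 ± 93.5 against 4677 ± 372 (-0.14 ± 0.05, limma adjusted p = 0.0267). Rpl10 (-0.02 ± 0.06) and Rps4x (0.04 ± 0.05) were not called. The 2 lower calls were 0 without the intensity trend, with scaling to total exon reads without Rn45s and without wt TCA plus Cort replicate 1, and 1 without its replicate 2 or without wt Cort replicate 3. Under that scaling 37.1% of all genes were higher and 23.4% lower, and no share is given for the other settings. This comparison shares its Cort libraries with Cort against vehicle and its TCA plus Cort libraries with TCA plus Cort against TCA, so their values are not independent. Of 10 mesenchymal markers 3 were higher and 5 lower, the 1 epithelial, 1 immune and 1 endothelial marker tested were lower, and their part in the result was not tested.

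In tetra cells all 76 members were above 0 for TCA plus Cort against Cort, with a median of 0.12 beside 0.00 for all genes. None was called by limma or limma voom, against 0.0660% of all genes called higher and 0% lower. At an unadjusted p below 0.05, 18 were higher and 0 lower. Without tetra TCA plus Cort replicate 3, 3 members were called higher, and the share of all genes in that setting is not given here.

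Under vehicle, ribosomal protein mRNAs were higher in tetra than in wt cells. Of 76 members 63 (82.9%) were called higher and none lower by limma, against 21.6% and 22.9% of all 12168 genes, and limma voom gave 63 and 0. No member was lower at an unadjusted p below 0.05. The median log2 ratio was 0.23 beside 0.01 for all genes. With scaling to total exon reads without Rn45s the median of all genes was 0.11, with 36.7% of them higher and 15.9% lower, and that of the members was 0.33, 0.22 above it as in the main scaling. Differences between the lines other than the receptor form cannot be told apart from it.

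Rpl7 (chr1:16101296-16104433, mm10), a large subunit protein, differed most, with 14155, 14560 and 14472 normalised reads in tetra against 10195, 11047 and 10559 in wt. This was 1.36-fold with no overlap (log2 ratio 0.44 ± 0.04, limma adjusted p = 1.02e-09). Rpl23a, which binds the signal recognition particle, gave 10880, 11217 and 11058 against 8128, 9049 and 8021, 1.32-fold higher. In both genes the tetra libraries lay closer together than the wt libraries. Rpl37 (1.31-fold), Rpl27 (1.30-fold), Rpl14 (1.30-fold) and Rpl8 (1.29-fold) followed, and Rplp0 was 1.19-fold higher at 33997 ± 1380.4 against 28582 ± 1261.

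Rpl41 was among the 13 members not called between the lines, with 14838, 15482 and 13434 normalised reads in tetra against 13901, 15749 and 16533 in wt (log2 ratio -0.08 ± 0.05). Rps27 was called higher (0.18 ± 0.05) and Rps27l was not (0.04 ± 0.05). The lowest ratio, -0.24 ± 0.22, was that of Rpl32l, the member with the lowest count, at 81.3 ± 36.1 against 92.5 ± 21.8. Of 25 ribosome biogenesis genes 15 were higher and 1 lower, and of 17 translation factors and other TOP mRNAs 9 were higher and none lower. Of 10 snoRNA host genes 6 were higher and none lower, such as Gas5, itself a TOP RNA, at 5146 ± 127 against 3828 ± 68.0. Of 84 respiratory chain subunits 3 were higher and 33 lower, and of 65 replication histones 54 were higher and 1 lower. Rpph1 was at 4363 to 4852 CPM in tetra vehicle and 7159 to 8246 CPM in wt vehicle, lower where the members were higher. Of 10 mesenchymal markers 3 were higher and 5 lower, and 1 of 2 epithelial markers and the 1 endothelial marker tested were lower. Their part in the members' result was not tested.

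**Figure D5:**
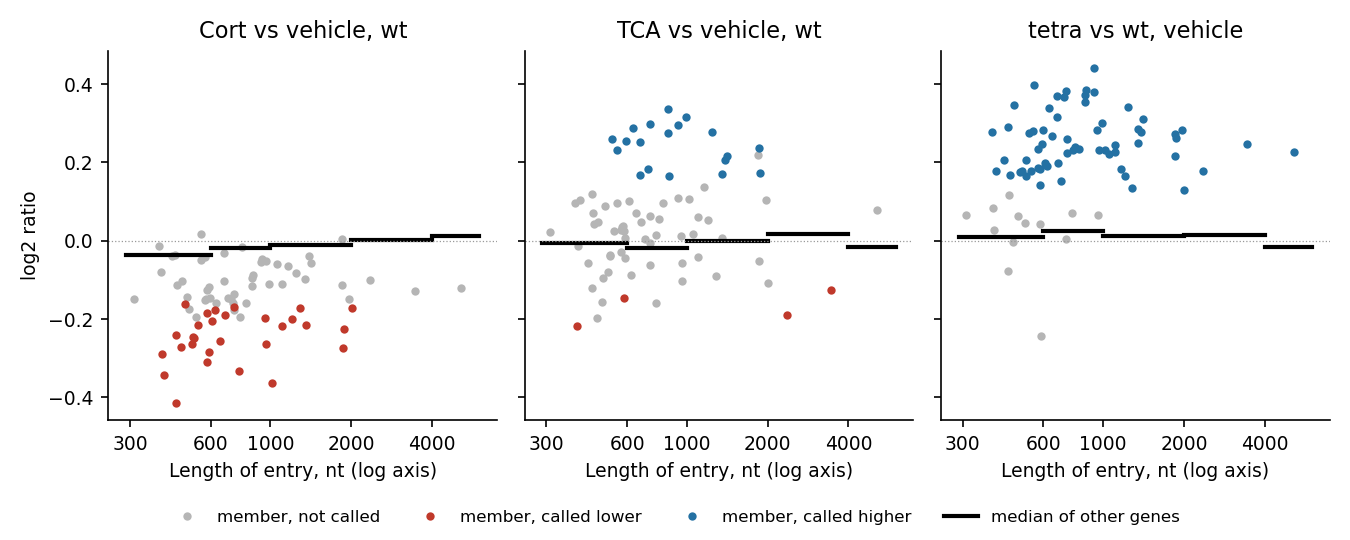
Log2 ratio of each ribosomal protein gene against the Length of its listed entry in nt (log axis) for 3 comparisons, coloured by call, with black bars at the median of all other genes in 5 bins of Length. In each bin the members' median lies below the bar for Cort against vehicle in wt and above it for tetra against wt.

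The listed entries of the members ran from 310 nt (Rpl38) to 5127 nt (Rps15a), with a median of 705.5 nt. With Cort in wt the log2 ratio over all genes rose weakly with Length (Spearman rho 0.23 over 12749 genes), and over the 78 members rho was 0.14. Both are across genes, which are not independent replicates. In entries of up to 600 nt the median log2 ratio was -0.15 over 31 members and -0.04 over 397 other genes, and 13 of the 31 were called lower beside 17.1% of the others. Above 600 and up to 1000 nt it was -0.15 over 26 members and -0.02 over 717 others, with 8 members lower beside 2.93% of the others. Above 1000 and up to 2000 nt it was -0.11 over 17 members and -0.01 over 2798 others, with 7 lower beside 0.786%. Only 3 members had entries above 2000 and up to 4000 nt, and 1 had a longer one.

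The 4 shortest members differed in their calls with Cort in wt. Rpl38 (310 nt) was at 6741 ± 229.9 normalised reads against 7548 ± 236 (limma adjusted p = 0.0713), Rps29 (385 nt) at 6559 ± 824 against 6595 ± 242, Rps28 (390 nt) at 4282 ± 346 against 4566 ± 349.9, and only Rps21 (393 nt) was called lower. Of the 4 longest, Rpl5 (2009 nt) was called lower, and Rpl22 (2352 nt), Rps20 (3440 nt) and Rps15a (5127 nt) had log2 ratios of -0.10, -0.13 and -0.12 and were not. For TCA against vehicle in wt, rho was 0.20 over members and -0.02 over all genes, and for tetra against wt it was 0.32 and -0.05. In tetra cells rho over all genes was 0.34 with Cort and 0.36 with TCA, beside 0.09 and -0.07 over the members. Lengths are those of the listed RefSeq entry, which differed between tables for 7 members: Rpl30, Rpl35a, Rpl38, Rps15, Rps19, Rps21 and Rps24. For Rps18 the entry was the same, but its Length ran from 517 to 542 nt between tables.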

How the data were processed

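Total RNA was ribodepleted and sequenced as stranded libraries, per the labels' protocols; STAR 2.7.0f, cutadapt, HOMER 4.10.4 and mm10 are named in the submitters' processing notes, and no strand setting is given in the sources used here. The authors deposited 6 tables of log2-like, variance-stabilised values, each table made on its own from exon reads of 6 libraries, per the file headers. Each table was inverted here to normalised counts; 100% of recovered counts below 1000 came within 0.01 of a whole number. The authors' comparison columns were not used, because the header of 1 table gives 5 group labels for 6 libraries. Per-sample value columns without a sample numbered 0.

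Genes whose normalised count averaged at least 10 were tested with limma 3.58.1 (R 4.3.3, intensity trend) on the deposited values within a table. Across tables, limma was run on log2(normalised count + 1) after joint median-ratio scaling of 24 libraries over 22341 genes with the same RefSeq entry in 5 tables, where log2 fold changes of low genes are understated. That departs from the test on deposited values planned for a single table. P-values were Benjamini-Hochberg adjusted over all genes tested, and called means below 0.05. Exon reads give a floor of 3 reads, 0.0981 to 0.136 CPM, for counting error only. The test within a table was run on simulated data for Cort against vehicle in wt and in tetra. Tests across tables, tests of differences and limma voom were not run on simulated data.

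The members, gene lists and tests were chosen with earlier results of these data known. Named were a panel fixed by role, the 4 shortest and 4 longest members, up to 6 called members at each end of a comparison and the 2 with the smallest adjusted p, up to 4 for a difference, and up to 3 genes per list; the remaining called members, members named for a ratio or p without a call, and the cell type markers were named after their values were seen. A few genes are counted but not reported by name here. Promoter sequences are from RefSeq (GRCm38.p6). Python 3.11.15, numpy 2.4.6, pandas 2.3.3 and matplotlib 3.10.9 were used. Alternatives were no intensity trend, other filters, a replicate block, total-read scalings, limma voom with TMM, another transformation or a pseudocount of 5, and leaving out each library. In no comparison did every pair of same-numbered libraries correlate above 0.1, so the numbers were not taken to pair libraries. Single pairs did correlate above 0.1. In tetra, r for replicate 3 was 0.19 for Cort against vehicle and 0.18 for TCA plus Cort against TCA. It was 0.20 for TCA plus Cort against Cort and -0.15 for TCA against vehicle.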

Additional observations from a re-analysis of the deposited data

Results flagged for a closer look

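The effect of TCA on the log2 scale was larger in wt than in tetra cells for 16 of 76 members by the limma test of the difference itself, 21.1% against 19.9% of all genes. Given here are those of the panel fixed by role, of the 4 shortest or longest members, or among the 4 largest differences. Their values, wt minus tetra, were 0.41 for Rpl8, 0.41 for Rpl7a, 0.40 for Rpl27, 0.38 for Rps2, 0.29 for Rpsa, 0.23 for Rps3, 0.23 for Rps6 and 0.20 for Rpl3. Rpl8, Rpl7a, Rpl27, Rps2 and Rpsa were called in all 20 alternatives, while Rps6 lost its call in 5, Rps3 in 10 and Rpl3 in 11. The effect of Cort in wt cells differed with and without TCA for 25 of 76 members by the same kind of test, against 2.18% of all genes. For the 8 named by the same rule, Rps3 again among them, the values, with minus without, were 0.63 for Rpl41, 0.60 for Rps27l, 0.58 for Rpl34, 0.58 for Rpl36, 0.47 for Rplp1, 0.39 for Rps21, 0.32 for Rplp0 and 0.30 for Rps3. Rpl41 was called in all 20 alternatives, and each of the others lost its call without the intensity trend. Both differences share wt vehicle and wt TCA libraries. The second also shares wt vehicle and wt Cort libraries with Cort against vehicle, where 22 of its 25 members were called lower.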

How the results depend on the processing

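Counts below are of members called. With scaling to total exon reads, 10 were lower with Cort in wt (0.643% of all genes) and 0 with TCA in wt (23.9%). For the Cort effect with minus without TCA in wt, 6 were higher (0.616%). With Rn45s left out of the total, these were 18 (1.05%), 0 (22.2%) and 22 (1.84%). That scaling gave 37 higher with TCA in wt (37.4%) and 1 lower with Cort in tetra (0.878%). It gave 1 higher with TCA plus Cort against TCA (0.344%) and 0 lower with TCA plus Cort against Cort (23.4%), both in wt. For the TCA effect wt minus tetra it gave 28 higher (28.6%). Without the intensity trend, 1 was lower with Cort in tetra, 0 lower with TCA plus Cort against Cort in wt, and 3 higher for the Cort effect with minus without TCA in wt. With no filter on low values 4 were lower with Cort in tetra. With the replicate block, 22 were lower with Cort in tetra (24 in wt) and 2 higher with TCA plus Cort against Cort in tetra, where the numbers were not shown to pair the libraries. Shares of all genes without the intensity trend, without the filter or with the replicate block are not given here. The cause of these shifts was not tested.

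Leaving out 1 library gave 8 to 52 lower with Cort in wt and 0 to 18 lower with Cort in tetra. With TCA in wt it gave 15 to 30 higher and 1 to 8 lower, and with TCA plus Cort against TCA in wt 0 to 12 higher and 0 to 18 lower. With TCA plus Cort against Cort it gave 54 to 63 higher and 0 to 3 lower in wt, and 0 to 3 higher in tetra. For tetra against wt it gave 55 to 67 higher and 0 to 1 lower. For the TCA effect wt minus tetra it gave 9 to 22 higher and 0 to 2 lower, and for the Cort effect with minus without TCA in wt 13 to 28 higher and 0 to 2 lower. No count with a library left out is set beside the share of all genes, so these ranges show only how the members' count moved. In wt, the log2 ratio of Rpl5 for TCA plus Cort against TCA was 0.01 and ranged from -0.12, without wt TCA replicate 3, to 0.074. Over named members and settings, 4939 values kept direction and side of the threshold, 137 lost a call, 75 gained one and 1 turned. At 3 libraries a group, log2 ratios within tables had a median SE of 0.05 to 0.09 over members, so differences near that size could not be told from the spread.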
